A study of Danio rerio with 3 samples.

Results

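Cholinergic amacrine cells of single-cell libraries of the adult zebrafish retina were chosen by the UMIs of 2 genes, slc18a3a, which encodes the vesicular acetylcholine transporter, and chata, which encodes choline acetyltransferase, the enzyme that makes acetylcholine. A barcode with 200 or more genes was taken as a member when slc18a3a and chata together had 2 or more UMIs and the ganglion cell genes rbpms2a and rbpms2b together had fewer than 3. This gave 319 of 13915 barcodes in the WT V3 library and 626 of 15548 in the P23H V3 library, or 945 of 29463 in all. Members were then split by the UMIs of chgb, the gene of the secretory granule protein chromogranin B. The set with 5 or more chgb UMIs (chgb-high) held 74 WT and 99 P23H barcodes, and the set with fewer (chgb-low) held 245 WT and 527 P23H barcodes. The values of slc18a3a, chata, rbpms2a, rbpms2b and chgb chose the members and the sets, and they are given as a description.

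Amacrine cells are interneurons of the inner retina that release GABA or glycine onto bipolar, ganglion and other amacrine cells. The starburst amacrine cell is the cholinergic amacrine cell of the mammalian retina. It releases acetylcholine together with GABA, its processes form a pair of bands in the inner plexiform layer, and its asymmetric inhibition gives ganglion cells their direction selectivity. In the mouse, starburst cells are marked by the transcription factors Sox2 and Isl1, and Fezf1 is found in the ON type but not in the OFF type.

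Each library was made from the retinas of 3 pooled adult fish, labelled as 4 to 8 months old. The WT fish were of the AB strain, and the P23H fish carried the uth4Tg transgene for rhodopsin with the retinitis pigmentosa mutation P23H. Both were profiled with the 10X V3 chemistry, and a second pool of P23H fish with the V2 chemistry. With 1 library for each genotype and chemistry, the pool of fish and the genotype cannot be told apart, barcodes are not replicates, and no p-value is given.

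The V3 libraries were of like depth, with 32916412 UMIs in the WT and 31429971 in the P23H and medians of 1202 and 1243 UMIs per barcode with 200 or more genes. They shared 64 barcode sequences, and 0 of these were members in both. Members had medians of 2011 UMIs in the WT and 1730.5 in the P23H. Levels are UMIs summed over a set in a library and divided by its total UMIs (CPM), with exact 95% Poisson intervals, and shares of barcodes have exact (Clopper-Pearson) 95% intervals. These intervals hold counting error alone. A total of 101 WT members (31.7%) and 113 P23H members (18.1%) were rich in the markers of another cell type. Such members had 10 or more UMIs of the bipolar, horizontal, Müller glia, RPE, oligodendrocyte, microglia or erythroid marker list. Members with 5% or more of their UMIs from rod and cone genes were also counted. Ganglion cell and progenitor markers were not used, and glula, bhlhe23 and prkca were left out of the lists. bhlhe23, a bipolar marker, was at 2434 CPM in the WT and 2677 CPM in the P23H chgb-high set. The main counts are also given without the members rich in other markers.

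The rule cut through a graded range of counts. slc18a3a and chata together had a median of 5 UMIs per WT member (range 2 to 57) and 4 per P23H member (2 to 44). Outside the limit, 222 WT and 253 P23H barcodes had 1 such UMI. Just inside it, 56 WT and 122 P23H barcodes had 2. In the WT library, sox2 had a UMI in 12.2% of the barcodes with 1 cholinergic UMI and in 57.1% of those with 2. In the P23H library these shares were 30.4% and 55.7%. Median depths of these barcodes were 992 and 1446.5 UMIs in the WT and 1330 and 1464.5 in the P23H. The limit on rbpms2a and rbpms2b left out 18 WT and 21 P23H barcodes.

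Both sets were checked for sox2 and isl1, the genes of transcription factors that mark starburst cells in the mouse. A UMI of either was found in 182 of 245 chgb-low barcodes of the WT (74.3%) and in 403 of 527 of the P23H (76.5%). In the chgb-high set bhlhe22, the gene of a transcription factor found in many amacrine cells of the mouse, had UMIs without sox2 or isl1 in 61 of 74 WT barcodes and in 96 of 99 P23H barcodes, and 0 barcodes of either library had sox2 or isl1 without bhlhe22. The chgb-high set is therefore called by its leading genes, chgb and bhlhe22, and no cell type is given to it beyond the cholinergic rule. Its ganglion cell markers were mixed. The 10 markers of retinal ganglion cells summed to 864 CPM in the WT and 997 CPM in the P23H chgb-high set. The sums were 302 and 311 CPM in the chgb-low set and 573 and 907 CPM in all other barcodes. Of the 2 that could be compared between the sets, 1 was higher and 0 were lower in the chgb-high set. The list includes rbpms2a and rbpms2b, which the rule kept low. Of the 10 markers, 6 had a UMI in the WT chgb-high set and 4 in the P23H chgb-high set. The 4 were rbpms2a, rbpms2b, rab6ba and robo2. isl2b, a gene of retinal ganglion cells, had 1 UMI in the WT set and 0 in the P23H set, against 721 and 661 CPM in the retinal ganglion class, and pou4f1, pou4f2 and pou4f3 were at 0 in both.

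The number of chgb UMIs per member had a wide range with few barcodes near the limit. It was 0 in 215 WT and 464 P23H members, 1 to 4 in 30 and 63, 5 to 19 in 17 and 31, and 20 or more in 57 and 68. Just outside the limit, 6 WT and 13 P23H barcodes had 4 chgb UMIs. Just inside it, 2 and 9 had 5. The barcodes with 3 or 4 chgb UMIs, on the low side, had bhlhe22 at 1993 CPM in the WT (13 barcodes) and 3618 CPM in the P23H (32 barcodes), with sox2 at 35.6 and 0 CPM, so that barcodes like those of the chgb-high set lay on both sides of the limit. Barcodes of the chgb-high set were also deeper, with medians of 5398.5 UMIs in the WT and 6083 in the P23H, against 1843 and 1596 in the chgb-low set. Their shares of mitochondrial UMIs were lower, with medians of 0.682% and 0.514% against 1.17% and 0.742%. These shares were counted by the names of mitochondrial tRNA and rRNA genes, without those of protein-coding mitochondrial genes. In members thinned to 1000 UMIs, with the limit at 3 chgb UMIs in place of 5 and without the 47 WT and 39 P23H members that were shallower, 63 of 272 (23.2%) and 87 of 587 (14.8%) were above the limit. The part of depth in the split was not tested.

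**Figure D1:**
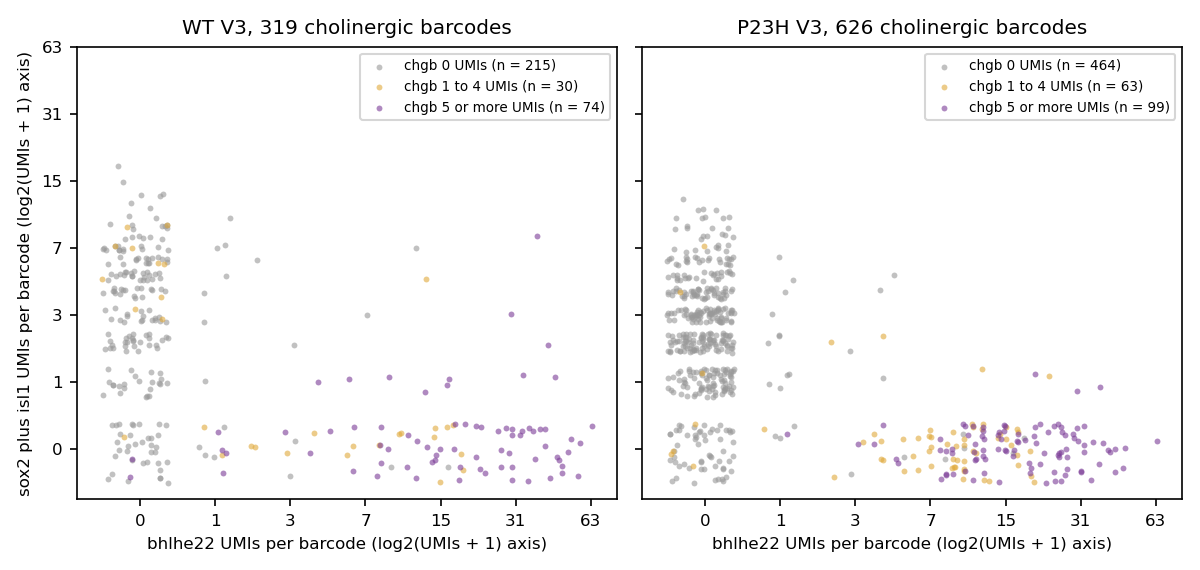
Each point is a cholinergic barcode of the WT V3 (left) or P23H V3 (right) library, placed by its UMIs of bhlhe22 (x axis) and of sox2 plus isl1 (y axis) on log2(UMIs + 1) axes, with a small random shift so that points do not cover each other. Colours give the chgb UMIs of the barcode, 0 in 215 and 464 barcodes, 1 to 4 in 30 and 63, and 5 or more in 74 and 99. Barcodes with 5 or more chgb UMIs lie along the x axis, and barcodes with 0 lie mostly along the y axis.

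Both sets carried the cholinergic genes at like levels, and these genes had chosen them. slc18a3a was at 1438 CPM in the chgb-high and 1188 CPM in the chgb-low set of the WT, and at 1666 and 1709 CPM in those of the P23H. chata was at 820 and 615 CPM in the WT, and at 870 and 705 CPM in the P23H. In bipolar cells, which lack these genes, 0.887% and 1.29% of barcodes had a UMI of slc18a3a and 0.433% and 0.570% one of chata, at median depths of 1074 UMIs in the WT and 918 in the P23H. slc5a7a, the gene of the choline transporter that returns choline to the terminal, was lower in the chgb-high set, at 17.7 against 124 CPM in the WT and at 1.74 against 57.0 CPM in the P23H. ache, the gene of acetylcholinesterase, which breaks acetylcholine down, was higher there, at 904 against 166 CPM and 863 against 202 CPM. Of the 6 genes of acetylcholine synthesis, transport and breakdown that could be compared, ache and slc5a7a were thus the ones past the rule of size. Of all genes compared, 10.6% were past the rule in either direction.

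A gene was called between the sets where it had 20 or more UMIs in each library and, in both V3 libraries, the intervals of the sets did not overlap and the ratio was 2 or more in the same direction. Of 5800 genes compared, 615 were called (10.6%), 288 higher (4.97%) and 327 lower (5.64%) in the chgb-high set. Without the barcodes rich in other markers, 215 were higher and 295 lower. The median log2 ratio over all compared genes was 0.10 in the WT and -0.01 in the P23H. Since chgb and the genes that vary with it set the groups in the same barcodes, these counts describe the split and do not test it.

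Several genes of mouse starburst cells were higher in the chgb-low set. sox2 was at 780 CPM (716 to 848) in the chgb-low and 28.8 CPM (15.3 to 49.2) in the chgb-high set of the WT, and at 793 CPM (739 to 849) and 5.22 CPM (1.08 to 15.3) in those of the P23H. Thinned to 1000 UMIs, 53.0% and 49.6% of chgb-low barcodes had a sox2 UMI against 2.78% and 1.01% of chgb-high barcodes, and before thinning these shares were 63.7% and 57.9% against 8.11% and 3.03%. In bipolar cells 1.71% and 0.915% had one. isl1 was at 415 against 17.7 CPM in the WT, and at 456 CPM against 0 UMIs in the P23H, which is at least 87.4-fold higher. megf11, of a family whose mouse members space starburst cells evenly, was at 0 UMIs in the chgb-high set of the WT against 133 CPM, and at 3.48 against 116 CPM in the P23H. megf10, the other member of that family, had 0 UMIs in the chgb-high set of both libraries against 32.4 and 27.5 CPM in the chgb-low set. slit2, the gene of a secreted axon guidance cue, was at 420 against 57.6 CPM in the WT and 344 against 55.7 CPM in the P23H. mdkb, the gene of the growth factor midkine b, which is not on the mouse list, was more abundant, at 5386 against 946 CPM and 7621 against 1020 CPM. Of 12 genes on the list of mouse starburst genes, 6 were lower and 2 higher in the chgb-high set (pcdh17, a protocadherin gene, and kcnc1a, a potassium channel gene), with medians of -1.15 in the WT and -1.68 in the P23H on the log2 scale. Over all genes compared, 5.64% were lower and 4.97% higher.

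Other genes of the chgb-low set were not on that list. tgfa, which encodes transforming growth factor alpha, a ligand of the EGF receptor, was at 341 CPM (300 to 387) against 4.43 CPM (0.537 to 16.0) in the WT, and at 600 CPM (553 to 649) against 1.74 CPM (0.0441 to 9.70) in the P23H. It had a UMI in 56.3% and 58.8% of the chgb-low barcodes. pard3ba, of the family of Par3 polarity proteins, was at 171 against 2.22 CPM in the WT and 220 against 3.48 CPM in the P23H. rgs9bp, which in photoreceptors anchors the GTPase-activating protein of the phototransduction cascade, was at 542 against 26.6 CPM and 576 against 10.4 CPM. rnd3b, of a family of small GTP-binding proteins, was at 845 against 39.9 CPM in the WT, where 15 of the 18 UMIs of the chgb-high set came from 1 barcode, and at 578 CPM against 0 UMIs in the P23H. tfap2b, the gene of a transcription factor of amacrine cells, was at 224 against 11.1 CPM in the WT and at 247 CPM against 0 UMIs in the P23H. kcnip3b, which encodes a calcium-binding partner of A-type potassium channels, was at 372 against 24.4 CPM and 1145 against 15.7 CPM. The log2 ratios of gadd45aa, a stress response gene, were -5.62 and -5.60, and those of pvrl1a, the gene of a nectin adhesion protein, were -5.19 and -5.49. rgrb, an opsin gene of the RPE and Müller glia, and samd10a were also among the 12 lowest genes, and 1329 of the 4316 chgb-low UMIs of rgrb in the WT came from 1 barcode. The share of barcodes with a UMI of rgrb was 52.2% in the chgb-low and 48.6% in the chgb-high set of the WT. In the P23H these shares were 9.11% and 4.04%.

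Beside chgb, which set the split, 11 genes made up the 12 highest of the chgb-high set. si:ch73-302a4.4, which has no gene name in the files, had 126 UMIs in the chgb-high set of the WT and 106 in that of the P23H against 0 in both chgb-low sets, at least 66.0-fold and at least 62.5-fold higher, and 51.4% and 50.5% of barcodes had a UMI. kcnj4, the gene of an inwardly rectifying potassium channel, had 65 against 2 UMIs in the WT and 93 against 4 in the P23H, with log2 ratios of 5.67 (3.76 to 8.75) and 5.36 (3.96 to 7.27). syt9b, of the synaptotagmin family of calcium sensors for vesicle release, was at 1384 against 45.1 CPM and 1067 against 44.3 CPM. mpp2b, the gene of a membrane scaffold protein, was at 461 against 18.3 CPM and 569 against 18.7 CPM. slc7a10a, of the gene family of an alanine, serine and cysteine transporter, had 67 against 0 UMIs and 68 against 3. pcdh11, a protocadherin gene, had log2 ratios of 4.46 and 4.51, and cacna1fb, which encodes a calcium channel subunit used at photoreceptor and bipolar synapses, 4.22 and 4.20. rpp25b, dixdc1b, anks1ab and si:dkeyp-123h10.2 completed the 12 highest with chgb, and their log2 ratios lay between 4.61 and 5.86 in both libraries.

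**Figure D2:**
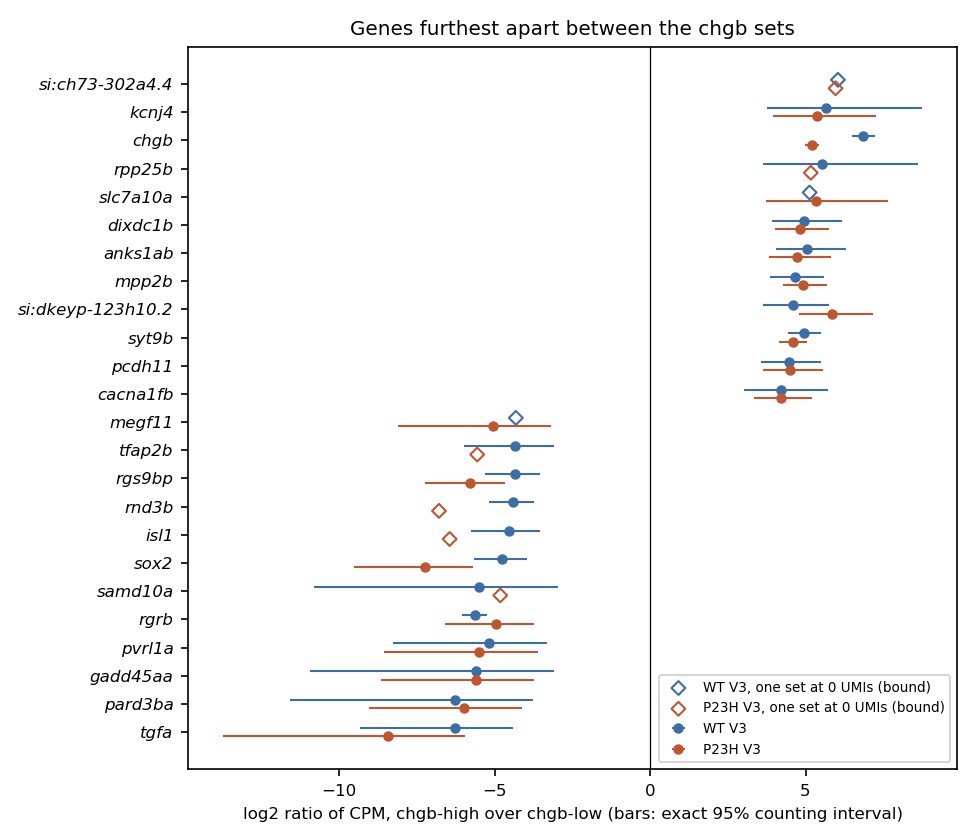
The 12 highest and 12 lowest genes between the chgb-high and chgb-low sets, ranked by the library nearer 0, with the log2 ratio of their CPM (x axis) in the WT V3 and P23H V3 libraries and exact 95% counting intervals as bars. Open diamonds are bounds computed with 3 UMIs in a set that had 0. sox2 lies at -4.76 in the WT and -7.25 in the P23H, and syt9b at 4.94 and 4.59.

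Among the transcription factors of amacrine cells, 4 of the 27 compared were higher and 2 lower in the chgb-high set. Over all genes compared, 4.97% were higher and 5.64% lower. bhlhe22 was at 3841 against 346 CPM in the WT and 3504 against 646 CPM in the P23H. meis2b, a homeobox gene, was at 1322 against 147 CPM and 1311 against 233 CPM. six3b, a homeobox gene of the anterior neural plate and eye field, was lower, at 155 against 717 CPM and 60.9 against 698 CPM. The median of the list was 0.59 in the WT and -0.01 in the P23H, close to the medians over all genes in the P23H.

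The transmitter genes other than those of acetylcholine also differed. gad1b, 1 of the genes of glutamate decarboxylase, which makes GABA, was at 2570 against 625 CPM in the WT and 3412 against 1261 CPM in the P23H. gad2, another, was at 1841 against 574 CPM and 2214 against 882 CPM. slc32a1, the gene of the vesicular transporter for GABA and glycine, differed less, at 1015 against 601 CPM and 1045 against 736 CPM, and was not called. slc6a1a, which encodes a GABA transporter of the plasma membrane, was lower in the chgb-high set, at 102 against 522 CPM and 34.8 against 684 CPM. vip, the gene of vasoactive intestinal peptide, was at 888 against 77.6 CPM in the WT and 444 against 38.4 CPM in the P23H, and 47.3% and 23.2% of the chgb-high barcodes had a UMI. Of the 12 granin and dense-core vesicle genes compared, 0 were lower and 3 higher, beside 5.64% and 4.97% of all genes compared. Of these 3, chgb was fixed by the rule. Another was vgf, the gene of a granin-like precursor of peptides, which was at 151 against 15.5 CPM and 181 against 24.6 CPM. nmu, which encodes the peptide neuromedin U, was higher in the chgb-low set, at 57.8 CPM against 0 UMIs and 303 against 1.74 CPM, and 214 of the 308 chgb-low UMIs of the P23H came from 1 barcode.

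Of 14 potassium channel genes compared, 7 were higher and 3 lower in the chgb-high set, beside 4.97% and 5.64% of all genes compared. kcna4 and kcnc1a, which encode voltage-gated channels of the Shaker and Shaw families, were at 186 against 39.5 CPM and 151 against 11.3 CPM in the WT, and at 214 against 77.7 CPM and 113 against 2.95 CPM in the P23H. kcnj6, the gene of a channel opened by G proteins, was at 75.3 against 15.5 CPM and 139 against 10.8 CPM. kcnd3, the gene of an A-type channel, was lower with its partner kcnip3b, at 13.3 against 79.0 CPM and 3.48 against 112 CPM. Of 32 genes of the synaptic vesicle cycle 4 were higher and 2 lower. snap25a, of the SNARE complex, was at 5356 against 1578 CPM and 6431 against 2472 CPM, and cplx2, the gene of a complexin, was lower at 70.9 against 298 CPM and 47.0 against 412 CPM.

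For the lists that follow, the shares over all genes compared were 4.97% higher and 5.64% lower in the chgb-high set. Of 21 axon and cytoskeleton genes 7 were higher and 2 lower in the chgb-high set. maptb, a gene of the microtubule protein tau, was at 1037 against 168 CPM in the WT and 789 against 124 CPM in the P23H, and map1b, of another microtubule-associated protein, at 135 against 18.3 CPM and 245 against 35.4 CPM. gap43, the gene of a growth cone protein, had 0 UMIs in both chgb-high sets against 94.5 and 32.5 CPM. Of 33 guidance and adhesion genes 4 were higher and 5 lower. anos1a, an orthologue of the gene of the cell adhesion protein anosmin, was at 970 against 111 CPM and 679 against 120 CPM. dscama, of the Down syndrome cell adhesion molecules, was higher at 97.5 against 25.4 CPM and 54.0 against 11.8 CPM, whereas dscaml1, of the same family, was lower at 13.3 against 103 CPM and 3.48 against 70.8 CPM. Of 9 genes of AMPA, NMDA and kainate receptors 2 were higher and 1 lower, with gria3a at 574 against 150 CPM and 729 against 345 CPM, and grin2ab lower at 11.1 against 70.5 CPM and 3.48 against 69.8 CPM. The GABA-A receptor subunit gene gabrb2 was lower, at 190 against 409 CPM and 188 against 482 CPM. Of the 19 oxidative phosphorylation genes and the 14 clock genes compared, 0 were called.

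Markers of photoreceptors moved with the split. The 7 cone markers, all lower in the chgb-high set, summed to 5549 against 13377 CPM in the WT and 3924 against 13215 CPM in the P23H, and cone RNA in other barcodes of these libraries summed to 36043 and 33136 CPM. The 7 rod markers summed to 6320 against 10079 CPM in the WT and 653 against 2159 CPM in the P23H, and 0 were called. Their part in the split was not tested. Without the barcodes rich in other markers, the direction of each of the 24 named genes was kept.

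Members were set beside the other classes that could be formed from marker UMIs. These were GABAergic amacrine barcodes (936 in the WT and 1514 in the P23H), glycinergic amacrine barcodes (386 and 577), which had 3 or more UMIs of slc6a9, the gene of a glycine transporter, and retinal ganglion barcodes (395 and 615). The glycinergic class of the WT held some very deep barcodes, up to 90375 UMIs, and slc32a1 was at 114 CPM there against 750 CPM in the P23H, so it is a class by its rule only. Of 3159 genes compared, 96 (3.04%) were higher in the members than in the highest of the classes by 2-fold or more in both libraries with no overlap of intervals. slc18a3a and chata led, as fixed by the rule. The others of the 10 highest were lrtm2b, tgfa, rnd3b, megf11, sv2c, pard3ba, sox2 and sox2ot, a noncoding RNA gene that overlaps sox2.

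Most of these 8 genes belonged to the chgb-low set. lrtm2b, of the leucine-rich transmembrane proteins, was at 134 CPM in the WT and 224 CPM in the P23H members, with log2 ratios of 5.44 and 4.77 to the highest class. tgfa was at 210 and 384 CPM (4.64 and 5.82), and rnd3b at 532 and 370 CPM. sv2c, which encodes a synaptic vesicle glycoprotein, was the exception. It was at 77.5 and 73.1 CPM in the chgb-high and 49.4 and 67.9 CPM in the chgb-low set, and its log2 ratios to the highest class were 4.29 and 4.89. Against the same classes, 102 of 1436 genes compared (7.1%) were higher in the chgb-high set and 75 of 2026 (3.7%) in the chgb-low set. Without the 8% of members with the most UMIs these counts were 54 and 86.

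**Figure D3:**
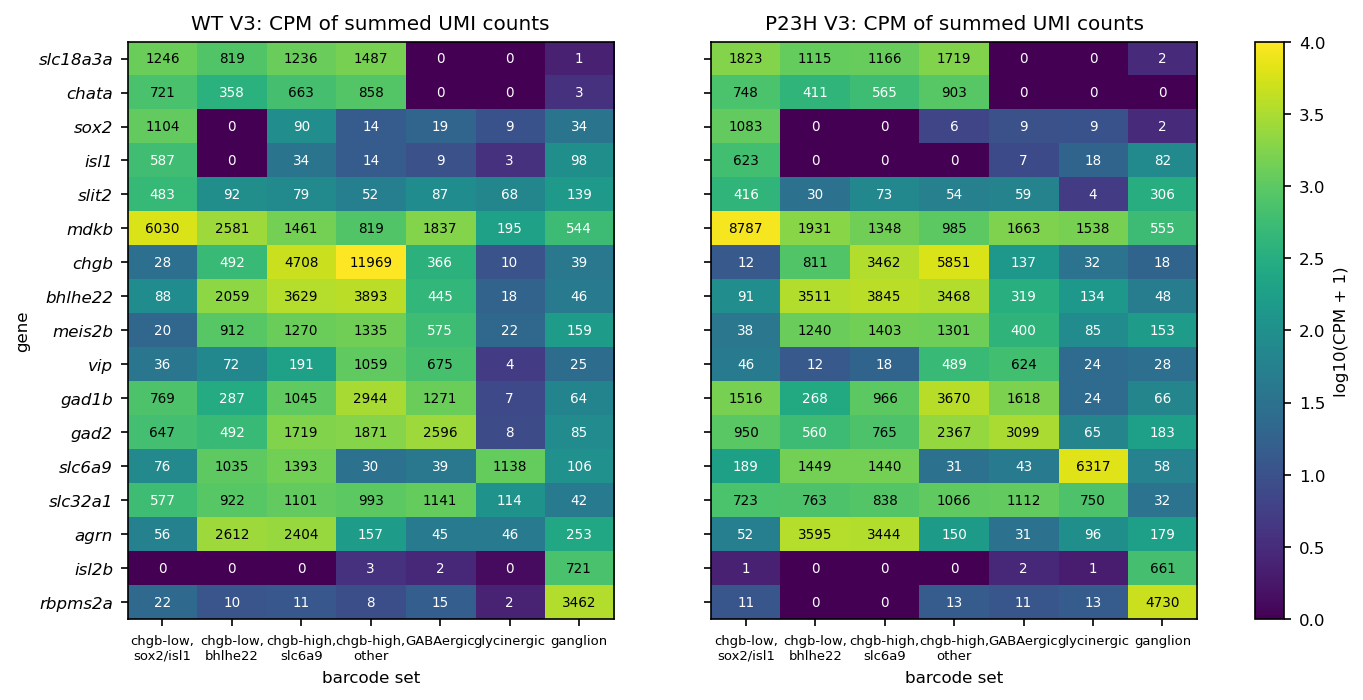
Levels of 17 genes (vertical axis) in 7 sets of barcodes (horizontal axis) of the WT V3 and P23H V3 libraries, as CPM of summed UMIs with the values printed in the cells and colours on a log10(CPM + 1) scale. The sets were formed with the UMIs of some of these genes, so that high and low cells for slc18a3a, chata, sox2, isl1, bhlhe22, chgb, slc6a9, rbpms2a and the gad genes are set by the rules. The gene agrn reaches 2404 and 3444 CPM in the chgb-high barcodes with slc6a9 and is at 157 and 150 CPM in the other chgb-high barcodes.

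The chgb-high set was not uniform in its inhibitory transmitter. Of its 74 WT barcodes, 53 had 2 or more UMIs of gad1b and gad2 and fewer than 3 of slc6a9, 12 had 3 or more of slc6a9 and fewer than 2 of the gad genes, 4 had both and 5 neither. Of the 99 P23H barcodes these counts were 77, 13, 3 and 6. The barcodes with 3 or more slc6a9 UMIs were thus 16 of 74 (21.6%) in the WT and 16 of 99 (16.2%) in the P23H (21.4% and 25.5% without the 8% of members with the most UMIs), at median depths of 3396.5 and 2157.5 UMIs against 5994 and 6430 in the other chgb-high barcodes. Of 3002 genes compared between them, 42 were called (1.4%), 28 higher (0.933%) and 14 lower (0.466%) in the barcodes with slc6a9. slc6a9 itself, at 1393 against 30.3 CPM in the WT and 1440 against 30.8 CPM in the P23H, was used by the rule.

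agrn, the gene of agrin, which clusters acetylcholine receptors at the neuromuscular junction, was among the most abundant of the higher genes, at 2404 against 157 CPM in the WT and 3444 against 150 CPM in the P23H. It had a UMI in 81.2% against 8.62% of the WT barcodes and in 87.5% against 9.64% of the P23H barcodes. chrna2a, which encodes a subunit of nicotinic acetylcholine receptors, was at 371 against 16.6 CPM and 237 against 13.5 CPM. kcnip4, of another partner of A-type potassium channels, was at 213 against 16.6 CPM and 456 against 15.4 CPM. lhx2b, a LIM homeobox gene, was at 281 against 74.5 CPM and 474 against 69.3 CPM. Of the lower genes, gad1b was at 1045 against 2944 CPM and 966 against 3670 CPM, and slc6a1b, of a second plasma membrane GABA transporter, at 921 against 2594 CPM and 510 against 1309 CPM. vip was at 191 against 1059 CPM and 18.2 against 489 CPM. zfhx3, the gene of a zinc finger homeobox protein, was at 494 against 1380 CPM and 456 against 1026 CPM. The slc6a9 barcodes in these comparisons include the 4 WT and 3 P23H barcodes that also had gad UMIs. The 4 WT ones had 9190, 20188, 15833 and 9587 UMIs of the 89006 in that set. gad1b and gad2 together had a median of 0 UMIs per slc6a9 barcode in both libraries, with up to 85 in the WT and 69 in the P23H. The part of these barcodes in the levels was not tested.

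Barcodes with the same genes were found below the chgb limit. In the chgb-low set, 26 WT and 62 P23H barcodes had bhlhe22 but neither sox2 nor isl1. Of these, 17 (65.4%) and 39 (62.9%) had 3 or more slc6a9 UMIs, against 5 of 182 (2.75%) and 16 of 403 (3.97%) of the chgb-low barcodes with sox2 or isl1. A chgb UMI was found in 18 (69.2%) and 52 (83.9%) of them. agrn was at 2612 and 3595 CPM there, chrna2a at 594 and 346 CPM, syt9b at 297 and 191 CPM, and slc18a3a at 819 and 1115 CPM. The share of slc6a9 barcodes in the chgb-high set therefore moved with the limit. It was 32.2% in both libraries at 2 or more chgb UMIs, and 11.3% in the WT and 3.90% in the P23H at 10 or more.

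The chgb-low barcodes with sox2 or isl1 held a further division. It was looked at after the values of fezf1 had been seen, and fezf1 therefore has no test. fezf1, an orthologue of the mouse gene found in ON starburst cells, had a UMI in 26 of 182 barcodes of the WT (14.3%) and in 58 of 403 of the P23H (14.4%). It had 38 UMIs in these WT barcodes and 71 in these P23H barcodes. At such counts, barcodes with 0 fezf1 UMIs can include cells that express it. The shares are therefore of barcodes with a UMI and not of a kind of cell, and the barcodes without fezf1 may be mixed. Median depth was alike, at 1857.5 and 1843 UMIs with and without fezf1 in the WT and 1574.5 and 1515 in the P23H. The deepest barcodes differed, with 5593 and 48858 UMIs in the WT and 23224 and 10435 in the P23H. They were part of totals of 50822 and 450016 UMIs in the WT and 117254 and 627055 in the P23H. The part of single deep barcodes in the levels was not tested. Of 3258 genes compared, 16 were called (0.491%), 2 higher (0.0614%) and 14 lower (0.43%) in the barcodes with fezf1, and 14 were called without the barcodes rich in other markers.

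UMIs of rnd3b, slit2 and zfhx3 were almost absent from the barcodes with fezf1. rnd3b had a UMI in 0 of 26 and 0 of 58 of them, which allows shares of barcodes with a UMI, not of cells that express the gene, of up to 11.5% and 5.17% by a floor of 3 counts, against 86 of 156 (55.1%) and 160 of 345 (46.4%) of the others. Its levels were 0 UMIs against 1231 CPM in the WT and 853 CPM in the P23H, at least 20.9-fold and 33.3-fold lower. slit2 had a UMI in 0 of 26 and 3 of 58 (5.17%), against 82 of 156 (52.56%) and 139 of 345 (40.3%). zfhx3 had a UMI in 1 of 26 (3.85%) and 1 of 58 (1.72%), against 87 of 156 (55.8%) and 151 of 345 (43.8%). In bipolar cells, at median depths of 1074 and 918 UMIs, 1.02% and 0.420% of barcodes had a UMI of rnd3b, 2.34% and 1.98% one of slit2, and 3.61% and 3.29% one of zfhx3.

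Other lower genes were kcnc3a, of a Shaw potassium channel, at 0 UMIs against 280 CPM in the WT and 59.7 against 456 CPM in the P23H, plxna2, the gene of a semaphorin receptor, at 0 UMIs against 184 CPM and 25.6 against 134 CPM, arhgap5, and syt2a, of a synaptotagmin. rgrb and 4 genes of photoreceptors, RPE or glia (irbp, rbp4l, opn1mw2 and clul1) were also among the lower genes. dio3b, the gene of an enzyme that inactivates thyroid hormone, was the higher gene beside fezf1, at 157 against 42.2 CPM and 179 against 63.8 CPM. Of the genes that had picked the barcodes, slc18a3a had a UMI in 92.3% against 96.2% of WT and 100% against 98.3% of P23H barcodes, and chata in 61.5% against 71.8% and 65.5% against 70.14%. The transcription factor gene sox2 had one in 96.2% against 84.0% and 86.2% against 73.9%, and isl1 in 88.5% against 73.1% and 56.9% against 69.3%.

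**Figure D4:**
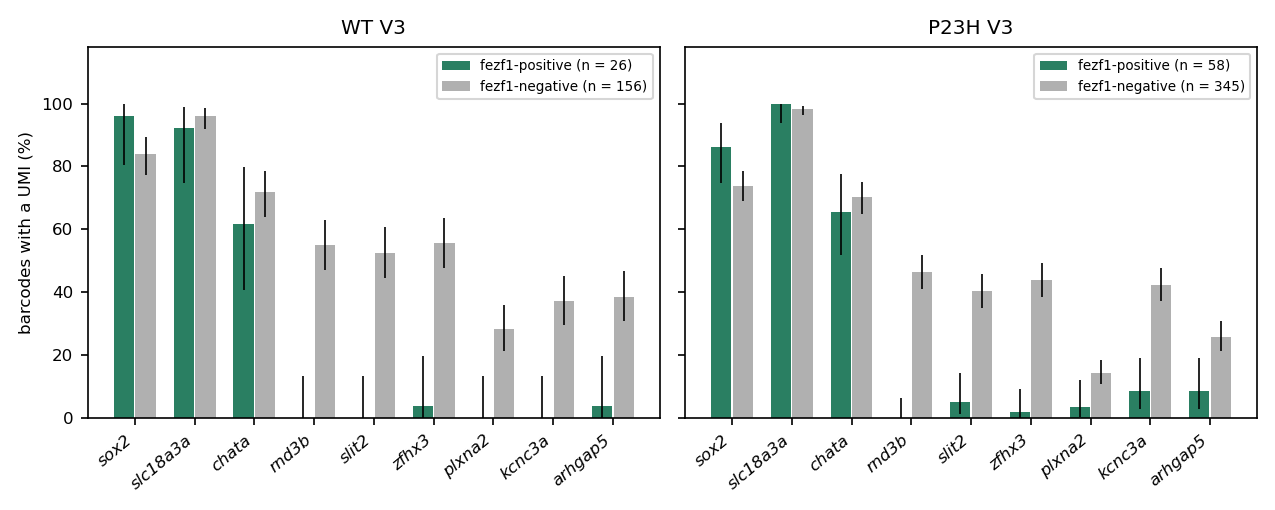
Shares of chgb-low barcodes with sox2 or isl1 that had a UMI of each gene (y axis, percent of barcodes, from 0), for barcodes with and without a fezf1 UMI in the WT V3 (26 and 156 barcodes) and P23H V3 (58 and 345 barcodes) libraries, with exact 95% binomial intervals as bars. rnd3b is at 0 of 26 and 0 of 58 with fezf1, against 55.1% and 46.4% without, while slc18a3a is above 92% on both sides.

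Cholinergic members were a larger share of the barcodes in the P23H library, at 4.03% (3.72 to 4.35) against 2.29% (2.05 to 2.55) in the WT, a ratio of 1.76 (1.53 to 2.02). The other inner retinal classes were also larger shares there, with ratios of 1.45 (1.33 to 1.57) for GABAergic amacrine, 1.34 (1.17 to 1.53) for glycinergic amacrine and 1.39 (1.23 to 1.59) for retinal ganglion barcodes. In the barcodes outside the members, rod markers summed to 23656 CPM in the WT and 8087 CPM in the P23H, and the part of the other cell types in these shares was not tested. As a share of amacrine barcodes, members were 23.04% of 2717 in the P23H and 19.4% of 1641 in the WT, a ratio of 1.19 (1.03 to 1.36). The ratio differed between the sets. The chgb-low set had 1.30 (1.11 to 1.52) times its WT share of amacrine barcodes, and the chgb-high set 0.808 (0.592 to 1.11) times. As a share of members, chgb-high barcodes were 23.2% (18.7 to 28.2) in the WT and 15.8% (13.04 to 18.9) in the P23H, and 19.1% and 9.55% without the 8% of members with the most UMIs. That cut took out a larger part of the chgb-high set, which was deeper (medians of 5398.5 and 6083 UMIs) than the chgb-low set (1843 and 1596). The chgb level that sets the limit also differed between the libraries. chgb had a median of 59.5 UMIs per chgb-high barcode in the WT (range 5 to 181) and 34 in the P23H (5 to 87), and in barcodes outside the members its log2 ratio of P23H to WT was -0.83.

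Within the sets, a gene was called between P23H and WT where its intervals did not overlap and the ratio was 1.5 or more with 20 or more UMIs over both libraries. In the chgb-low set 1783 of 7653 genes were called (23.3%), 953 higher (12.5%) and 830 lower (10.8%) in the P23H, and in the chgb-high set 837 of 5472 (15.3%), 408 higher (7.46%) and 429 lower (7.84%). Many of these ratios were found in the barcodes outside the members as well. Calls whose ratio in all other barcodes was not past 1.5 in the same direction numbered 548 in the chgb-low set (7.16%), 307 higher (4.01%) and 241 lower (3.15%), and 378 in the chgb-high set (6.91%), 145 higher (2.65%) and 233 lower (4.26%). Scaling by TMM factors gave 507 higher and 356 lower calls in the chgb-high set, so the balance of directions there depended on the scaling. Without the barcodes rich in other markers, the chgb-low set had 475 higher and 417 lower calls, and 260 genes were lower in the chgb-high set. Without the 8% of members with the most UMIs, 620 were higher in the chgb-low set, and 228 were higher and 185 lower in the chgb-high set.

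**Figure D5:**
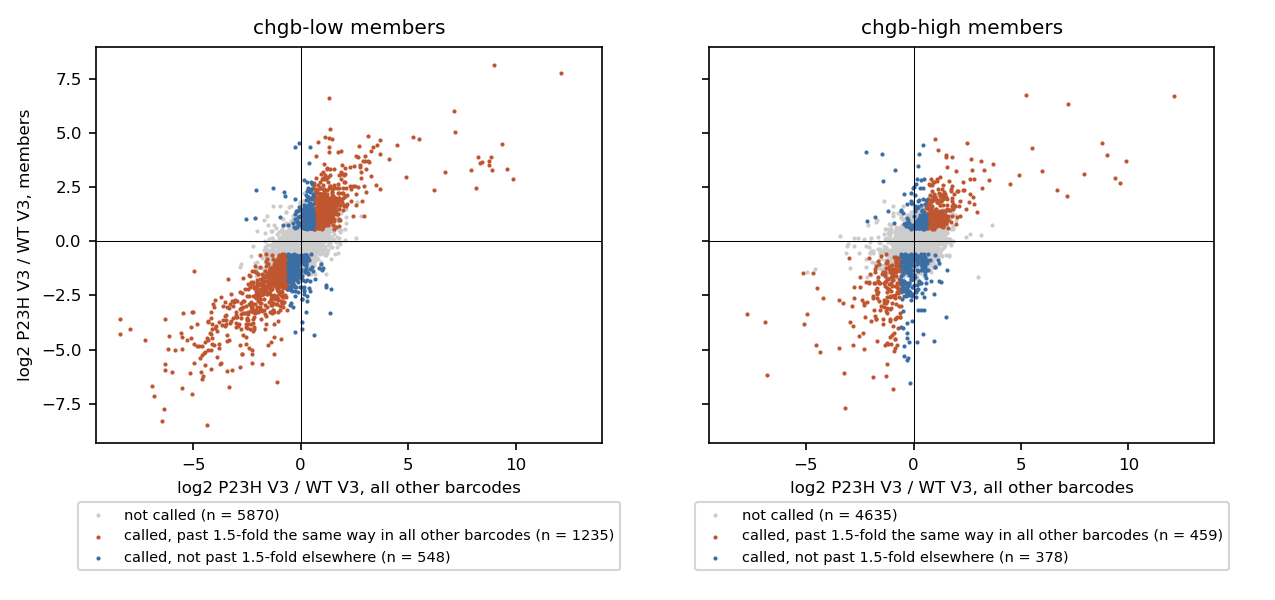
Each point is a gene, placed by its log2 ratio of P23H V3 to WT V3 in all barcodes outside the members (x axis) and in the chgb-low or chgb-high set (y axis), with genes at 0 UMIs in a library placed at the floor of 3 UMIs. Of the genes called in the chgb-low set 1235 were past 1.5-fold the same way outside the members and 548 were not, and in the chgb-high set 459 and 378.

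Of the genes that mark the members, chata and slc18a3a were not called between the genotypes in either set, and sox2 and isl1 were not called in the chgb-low set and had too few UMIs to be compared in the chgb-high set. chgb, whose UMIs set the limit, had log2 ratios of -0.91 in the chgb-high and 0.73 in the chgb-low set. In the chgb-low set, sox2 was at 793 CPM in the P23H and 780 CPM in the WT, a log2 ratio of 0.02 (-0.13 to 0.18), isl1 had 0.14 (-0.08 to 0.35), chata 0.20 (0.02 to 0.37) and slc18a3a 0.53 (0.41 to 0.65). Of the 12 mouse starburst genes compared there 0 were called, with a median of -0.07 against 0.10 over all genes, of which 23.3% were called. In the chgb-high set bhlhe22 had -0.13 (-0.23 to -0.04), meis2b -0.01 (-0.17 to 0.14), ache -0.07 (-0.26 to 0.13) and chata 0.09 (-0.11 to 0.28). slc5a7a was lower in the chgb-low set of the P23H, at 57.0 against 124 CPM, which is -1.12 (-1.63 to -0.63) on the log2 scale beside -0.53 outside the members. gad1b was higher there, at 1261 against 625 CPM (1.01, 0.86 to 1.17), against 0.42 outside the members. It was not among the genes that passed the filters given below for ratios not shared with other barcodes, whereas slc5a7a was. bhlhe22 in the chgb-low set had 0.90 (0.69 to 1.12). Barcodes with bhlhe22 and neither sox2 nor isl1 were 26 of 245 there in the WT and 62 of 527 in the P23H. vip was lower in both sets, at 444 against 888 CPM in the chgb-high (-1.001, -1.23 to -0.77) and 38.4 against 77.6 CPM in the chgb-low set (-1.02, -1.65 to -0.40), while its ratio outside the members was 0.24. scg2b, a granin gene, also had log2 ratios of -0.99 and -1.28 in the chgb-high and chgb-low sets and 0.45 outside the members. scg2b passed the filters given below in the chgb-high set but not in the chgb-low set, and vip passed them in neither.

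The largest ratios were those of genes that had almost no UMIs in 1 of the libraries in any barcode. scg5, which encodes the chaperone of a prohormone convertase, had 0 UMIs in the whole WT library and 13994 in the P23H V3 library, and within the members 405 against 0 in the chgb-high set and 933 against 0 in the chgb-low set, at least 106-fold and at least 217-fold higher. hmx4, a homeobox gene, had 6327 UMIs in the whole P23H V3 library and 14 in the WT, and in the chgb-low set 2434 against 6. bbip1, irs2a, zgc:153426 and si:ch211-261n11.7 were of the same kind, with 5343 against 38, 9528 against 170, 4791 against 124 and 1368 against 30 UMIs in the whole libraries. When numbered copies of a symbol were kept apart, the ratios of hmx4 and bbip1 reversed. In all, 8 genes had 500 or more UMIs in the P23H V3 library and 0 in the WT, and 0 genes the reverse. ctsd, the gene of the lysosomal protease cathepsin D, went the other way, with 128 UMIs in the P23H V3 library and 15253 in the WT, and 3 against 301 in the chgb-low set.

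Others of the named genes came mostly from single barcodes or from markers of other cell types. Of the 63 UMIs of the cone opsin opn1mw1 in the chgb-high set of the P23H, 61 were in 1 barcode, and of the 490 of opn1lw2 in the WT, 455 were. Of the 265 UMIs of ccka, the gene of the peptide cholecystokinin, in the chgb-low set of the P23H, 254 were in 1 barcode, and of the 253 UMIs of cyp27c1, the gene of a retinoid enzyme, in that of the WT, 251 were. cd74a, of the antigen presentation pathway of immune cells, had 143 UMIs against 1, with 54 in 1 barcode. rlbp1a, ptgdsb.2, zgc:195173 and cebpd in the chgb-high set and lratb, fgfbp1a, ctgfa and ca9 in the chgb-low set were lower in the P23H, with log2 ratios between -8.31 and -6.23. In the chgb-low set, the RPE markers summed to 4744 CPM in the WT and 135 CPM in the P23H, and all 5 RPE markers compared were lower. Other marker lists moved as well, counted over the markers compared. Over all genes compared, 7.46% were higher and 7.84% lower in the chgb-high set, and 12.5% and 10.8% in the chgb-low set. In the chgb-high set 7 of 8 Müller glia markers (4827 CPM summed in the WT and 1577 in the P23H) and 6 of 6 rod markers (6320 and 653) were lower in the P23H, and 3 of 4 erythroid markers (441 and 1523) were higher. There 4 of 7 cone markers (5549 and 3924) and 3 of 5 bipolar markers (4641 and 3776) were also lower. More than any other part of it, the bipolar sum held bhlhe23, at 2434 CPM in the WT and 2677 CPM in the P23H. bhlhe23 was also higher in the chgb-high set than in the amacrine and ganglion classes, with log2 ratios of 4.15 and 4.55 to the highest. In the chgb-low set 6 of 8 Müller glia markers (5799 and 4194) and 4 of 7 rod markers (10079 and 2159) were lower, and 5 of 8 bipolar markers (1983 and 5018), 3 of 3 microglia markers (14.1 and 451) and 3 of 4 erythroid markers (901 and 3933) were higher. The Müller glia marker glula was higher there, at 2670 against 1466 CPM (log2 ratio 0.87, and 0.03 outside the members). Its log2 ratio was 1.31 without the barcodes rich in other markers, and 470 P23H and 173 WT barcodes had a UMI. Unlike the Müller glia markers that were lower, glula passed the filters given below for ratios not shared with other barcodes. The paper reports increased glula in the amacrine cell clusters of the P23H. Of 7 cone markers (13377 and 13215), 4 were lower and 1 was higher. The profile of the barcodes outside the members, taken off as background in an alternative, held 25.9% of the UMIs in the WT and 8.31% in the P23H of the chgb-high set, and 41.6% and 26.6% of the chgb-low set. The part of such RNA in these ratios was not tested.

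pcolce2b, of the procollagen C-proteinase enhancers, was the named gene whose ratio was least shared with other barcodes, at 95.7 against 4.43 CPM in the chgb-high set (4.43, 2.51 to 7.52, on the log2 scale) and 0.43 outside the members. Genes with a ratio not shared with other barcodes, kept without the barcodes rich in other markers, and with less than 20% of their UMIs in 1 barcode were named after their values had been seen. In the chgb-low set 95 were higher and 71 lower in the P23H. Markers of other cell types were among them, so the filters did not take out all such genes. The rod marker pde6g was lower, at 231 against 774 CPM, and glula and bhlhe23 of the Müller glia and bipolar lists were higher. arl4ca, of the ADP-ribosylation factor family, was at 347 against 70.5 CPM (2.30, 1.87 to 2.76) and had a UMI in 228 P23H and 42 WT barcodes. grik1a, a kainate receptor gene, was at 96.4 against 32.4 CPM, and ngb, which encodes the oxygen-binding protein neuroglobin, was lower at 29.5 against 135 CPM, while its log2 ratio outside the members was 1.40. In the chgb-high set 74 were higher and 75 lower. angptl1a, of an angiopoietin-like secreted protein, was at 88.8 against 19.9 CPM (2.15, 1.12 to 3.36). marcksl1a, of an actin-binding substrate of protein kinase C, was lower, at 31.3 against 179 CPM (-2.52, -3.34 to -1.77), and -0.35 outside the members.

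Of 19 immediate early genes compared in the chgb-low set, 9 were lower and 2 higher in the P23H, with a median log2 ratio of -0.92 in the set and -0.24 in the barcodes outside it. Over all genes compared in that set, 10.8% were lower and 12.5% higher. fosab, a Fos gene, was at 810 against 1969 CPM (-1.28, -1.41 to -1.16). jun was at 455 against 1037 CPM (-1.19, -1.36 to -1.02), while its ratio outside the members was 0.52. It was not among the genes that passed the filters given above for ratios not shared with other barcodes. fosb, junba, btg2 and klf6a were lower as well, and npas4a, an activity-induced gene of neurons, was higher at a log2 ratio of 1.21. Of 18 clock genes, 8 were higher and 1 lower, with medians of 0.84 in the set and 0.62 outside it. per1b, a repressor of the clock, was at 305 against 100 CPM (1.61, 1.23 to 2.00), and tefa, a clock output factor, at 647 against 152 CPM (2.09, 1.79 to 2.39). Like jun, both were outside the genes that passed the filters for ratios not shared with other barcodes. The labels give a collection of all fish 2 to 4 hours after light onset and the methods 1 to 3 hours, and the part of collection time in these lists was not tested. In the chgb-high set 3 of 14 clock genes were higher and 1 lower, and 1 of 16 immediate early genes was higher and 2 lower. The medians of these lists there were -0.26 for the clock genes, and 0.53 outside the members, and -0.34 for the immediate early genes, and -0.39 outside. Over all genes compared in that set, 7.46% were higher and 7.84% lower.

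Among the genes of neuronal function in the chgb-low set, 6 of 17 potassium channel genes were higher in the P23H and 0 lower (median 0.98, and 0.80 outside the members), and 7 of 12 AMPA, NMDA and kainate receptor genes were higher and 0 lower (0.92, and 0.82 outside). Of 33 synaptic vesicle genes 9 were higher and 1 lower (0.34, and 0.44 outside). kcnip3b was at 1145 against 372 CPM, which on the log2 scale is 1.62 beside 1.65 outside the members. Of 25 heat shock genes 4 were higher and 7 lower (0.04, and 0.10 outside). Over all genes compared in the chgb-low set, 12.5% were higher and 10.8% lower. In the chgb-high set 2 of 13 potassium channel genes were higher and 0 lower (-0.16, and 0.69 outside). There 1 of 8 receptor genes was higher and 0 lower (0.33, and 0.92 outside). Synaptic vesicle genes had 3 higher and 6 lower of 30 (-0.02, and 0.41 outside), and heat shock genes 4 and 5 of 24. Over all genes in that set, 7.46% were higher and 7.84% lower.

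The P23H V2 library, from another pool of fish, was shallower, with 3220964 UMIs in all. It had a median of 457 UMIs per barcode with 200 or more genes and 38 members of 4671 barcodes (0.814%), of which 1 was chgb-high. With the limit lowered to 2 chgb UMIs, 14 of its members were compared with the other 24. Of the 11 higher named genes other than chgb, 8 kept their direction, with 36 against 34 UMIs in all, or a summed 3060 against 1473 CPM. Of the 12 lower named genes, 10 had a UMI and 9 kept their direction, with 1 against 27 UMIs, or 85.0 against 1170 CPM. Counts per gene were small, such as 2 against 1 UMIs for kcnj4 and 5 against 9 for syt9b. For each named gene other than chgb, the intervals of the compared groups overlapped. Markers of other cells moved with this split too, with the haemoglobin genes ba1 at 4165 against 347 CPM, hbba2 at 3230 against 86.7 CPM and hbaa2 at 1275 against 43.3 CPM, and the Müller glia marker ptgdsb.1 at 935 against 3120 CPM, and their part in it was not tested. sox2 or isl1 had a UMI in 6 of its 37 chgb-low barcodes (16.2%), and bhlhe22 without sox2 or isl1 in 17.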

How the data were processed

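Retinal cells of 1 WT V3, 1 P23H V3 and 1 P23H V2 library were used, each a pool of 3 fish, and a WT V2 library was not analysed here. Per the submitters' processing notes and the methods, the authors aligned reads to GRCz11 with Cell Ranger 3.1.2.0, checked them with FastQC 0.11.9 and used Seurat 3.1.1 in R 3.6.1, and they deposited UMI counts per gene and barcode as whole numbers without normalization, with 13966, 15585 and 7956 barcodes, the V3 numbers being those the methods give. The methods give fish ages of 6 to 10 months, the labels 4 to 8. No other per-sample columns were left out. Numbered copies of a symbol were summed (47048 to 30579). Limits of the study on genes per cell and mitochondrial UMIs were an alternative. Mitochondrial UMIs were counted there by the names of tRNA and rRNA genes only, so the limit was looser than one on all mitochondrial genes.

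UMIs were summed per set and library to CPM. Genes at 0 in a set were given a floor of 3 UMIs per set for bounds. No doublet caller was run, and an alternative left out the 8% of members with the most UMIs. It took out a larger part of the deeper chgb-high set than of the chgb-low set, so counts and shares of the chgb-high set under it also rest on fewer barcodes. The members and lists were chosen with earlier results of these data known. Named genes between the sets were the 12 highest and 12 lowest log2 ratios, ranked by the value nearer 0 of both V3 libraries, among genes with 50 or more UMIs in the higher set of each library and no overlap of intervals. For P23H against WT they were the 6 highest and 6 lowest in each set with 50 or more UMIs in the higher library, and against other classes the 10 highest by the lower of both libraries. Other genes were named from lists or, where said, after their values were seen. The calculation was tested on simulated data. Other alternatives were stricter limits on genes, on cholinergic and rbpms2 UMIs and on chgb, thinning to 1000 UMIs, scaling by TMM factors or without the 20 most abundant genes, a background profile subtracted, log values averaged over barcodes, copies not summed, and the P23H V2 library. Tools were edgeR 4.0.16 in R 4.3.3 for the TMM factors, and pandas 2.3.3, scipy 1.17.1, numpy 2.4.6 and matplotlib 3.10.9 in python 3.11.15.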

Additional observations from a re-analysis of the deposited data

Results flagged for a closer look

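A total of 17 genes were called between P23H V3 and WT V3 in opposite directions in the chgb-high and chgb-low sets, against 441 called in the same direction in both. For 4 of them on the lists used here the values were as follows, and the difference between the sets was not tested. Slc6a9, the glycine transporter gene, had a log2 ratio of -0.85 in the chgb-high set and 0.88 in the chgb-low set. Chgb, whose UMIs set the limit between the sets, had -0.91 and 0.73. Cabp5a, a calcium-binding protein gene of bipolar cells, had -0.87 and 1.45, and rs1a, the retinoschisin gene of photoreceptors and bipolar cells, had -1.81 and 1.71.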

How the results depend on the processing

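The counts and shares that moved are given by setting, as WT then P23H where both moved, and the cause was not tested. The share of barcodes that are members was 2.98% and 5.31% with 500 or more genes per barcode, and 1.89% and 3.24% with 3 or more cholinergic UMIs, where chgb-high barcodes were 19.2% of P23H members. Without the barcodes rich in other markers it was 1.57% and 3.30%, a ratio of 2.11. With all members and amacrine barcodes as the denominator it was 19.4% and 23.04%, a ratio of 1.19. After thinning to 1000 UMIs it was 4.56% in the P23H, a ratio of 2.13. In the P23H V2 library it was 0.814%, with 2.63% of its members chgb-high. The ratio of this share to that of the WT V3 library was 0.355, at median depths of 457 and 1202 UMIs. A WT V2 library was not analysed, so genotype and chemistry cannot be told apart in this ratio. Without the 8% of members with the most UMIs the share of members was 3.70% in the P23H, where 9.55% of members were then chgb-high and 25.5% of these had 3 or more slc6a9 UMIs. In the P23H, chgb-high members were 12.3% with a limit of 10 chgb UMIs and 23.3% with 2, and the slc6a9 share was 11.3% and 3.90% with 10, and 32.2% in the P23H with 2.

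Called genes between the chgb sets were 132 higher and 128 lower with at least 100 UMIs, and by TMM scaling, which centred the medians at -0.04 in both libraries, 267 higher and 372 lower. The fezf1 division had 29 calls within the limits of the study, 28 with 3 or more cholinergic UMIs and 25 with rbpms2a and rbpms2b at 0. Without the deepest 8%, 54 genes of the chgb-high set were above the highest class. Between P23H and WT, the chgb-high set had 228 higher and 185 lower calls and the chgb-low set 620 higher without the deepest 8%, and 260 (chgb-high, lower), 475 and 417 (chgb-low, higher and lower) without the barcodes rich in other markers. With at least 100 UMIs these were 252 and 175 in the chgb-high set and 359 lower in the chgb-low set. At the minimum of 20 UMIs, calls not shared with other barcodes were 145 higher and 233 lower in the chgb-high set and 307 and 241 in the chgb-low set.

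Of 996 values of named genes under the alternatives, 794 stayed within their intervals, 197 moved and 5 reversed. The reversed values were opn1mw1 in the chgb-high set (-1.29 without the deepest 8%, -1.31 without the barcodes rich in other markers) and, with copies not summed, bbip1 (-0.35 chgb-high, -0.52 chgb-low) and hmx4 (-0.94 chgb-low). No paired analysis was possible because each genotype has 1 library per chemistry. Genes under 20 UMIs were not compared, and depth limits what can be said of barcodes with 0 UMIs of a gene.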

Other observations

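Neuropeptide genes were carried by few barcodes of the members. Of the 66 UMIs of crhb, the gene of corticotropin-releasing hormone, in the chgb-high set of the P23H, 64 were in 1 barcode, and in the chgb-low sets 163 of 235 in the WT and 98 of 111 in the P23H were. The tachykinin gene tac3a had 102 UMIs in the chgb-low set of the P23H, of which 64 were in 1 barcode, and 13 in that of the WT. The calcitonin gene calca had 54 UMIs in 4 chgb-high barcodes of the P23H and 9 in 2 of the WT. By contrast cadps2, the gene of a priming factor of dense-core vesicles, was spread over 53 of 99 chgb-high barcodes of the P23H and 27 of 74 of the WT, at 200.2 against 93.03 CPM, a log2 ratio of 1.11 against -1.81 outside the members.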
